A study of Mus musculus with 4 samples.

Results

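Interferon-stimulated genes are the genes that cells switch on after an interferon binds its receptor. A list of 43 mouse genes of this kind was followed in liver RNA of mice with and without hepatocyte Lpiat1 on chow or high fat diet (HFD). The list was fixed by name, with earlier results of these data known. Transcript accessions matched 41 of the 43 to 60 probes of the array, among 23462 genes in all, and Mx1 and Mx2 had no matched probe. The signal of 40 members was well above background on all 4 arrays, and that of Oas3 was so only in LKO on HFD.

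All mice were male, on a C57BL/6 background and 24 weeks old. F/F mice carried floxed Lpiat1 (Mboat7) alleles, for which the labels name no Cre. LKO mice carried the same floxed alleles with Alb-Cre, which is driven by the albumin promoter and so acts in hepatocytes. Whether the other cells of the liver kept the gene was not examined here. Either genotype received chow or HFD for 18 weeks from 6 weeks of age. Total RNA of liver was hybridised to 4 one-colour Agilent arrays, 1 for each combination (F/F chow, F/F HFD, LKO chow and LKO HFD). Whether the RNA on an array came from a single mouse or from a pool is not given in the sources used here.

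Type I interferons signal through Ifnar1 and Ifnar2 to a complex that includes Stat2 and Irf9 and binds the interferon-stimulated response element (ISRE) in the promoters of its targets. Type II interferon signals through Ifngr1 and Ifngr2 and acts on the gamma-activated site (GAS). The targets include sensors of viral RNA and DNA, enzymes that block viral replication, guanosine triphosphatases that attack pathogen-containing vacuoles and the feedback regulators of the pathway, and in liver they are expressed by hepatocytes as well as by resident and recruited immune cells.

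Promoters of some members are shown because these elements recur among the genes described below. RefSeq promoter windows of build GRCm38.p6, from 250 bases before to 50 bases after the start, were at hand for 31 of the 43 members. An ISRE-type run of letters (GAAANNGAA, either strand) was present in 19 of these 31 (61.3%), against 9.76% of 27025 genes, and 10 of the 31 (32.3%) held 2 or more matches, against 0.736%. The palindromic GAS-type run (TTCNNNGAA) was present in 8 of 31 (25.8%), against 9.55%. Matches can overlap each other. A match describes letters only, and the members are a list that was named for this type of control. In the sequences below, written 5′ to 3′ toward the gene, capitals mark the matches and positions count from the start, so that -1 is the last base before it.
Isg15, 3 overlapping ISRE-type matches, -93 to -43, chr4:156200861-156200911, minus strand: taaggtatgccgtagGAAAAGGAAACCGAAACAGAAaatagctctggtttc
Ifit1, 3 ISRE-type matches, -124 to -61, chr19:34640765-34640828, plus strand: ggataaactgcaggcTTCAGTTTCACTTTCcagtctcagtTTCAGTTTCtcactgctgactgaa
Ifit3, 3 ISRE-type matches, -170 to -79, chr19:34583359-34583450, plus strand: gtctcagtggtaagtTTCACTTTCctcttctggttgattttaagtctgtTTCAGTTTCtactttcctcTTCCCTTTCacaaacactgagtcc
Oas1a, 1 GAS-type match and 2 overlapping ISRE-type matches, -113 to -1, chr5:120907526-120907638, minus strand: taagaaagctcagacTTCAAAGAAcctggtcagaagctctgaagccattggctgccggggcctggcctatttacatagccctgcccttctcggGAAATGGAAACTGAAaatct
Oas1g, 2 overlapping ISRE-type matches, -33 to -1, chr5:120887614-120887646, minus strand: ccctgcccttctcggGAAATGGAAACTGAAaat
Gbp2, 1 ISRE-type match, -73 to -35, chr3:142620590-142620628, plus strand: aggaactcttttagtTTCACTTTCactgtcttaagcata
Rsad2, 1 ISRE-type match, -134 to -96, chr12:26456548-26456586, minus strand: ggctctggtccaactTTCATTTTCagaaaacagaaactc
Igtp, 1 GAS-type and 1 ISRE-type match, -60 to -11, chr11:58199496-58199545, plus strand: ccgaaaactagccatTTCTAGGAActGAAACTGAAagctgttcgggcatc
Irgm2, 1 GAS-type and 1 ISRE-type match, -90 to -41, chr11:58214887-58214936, plus strand: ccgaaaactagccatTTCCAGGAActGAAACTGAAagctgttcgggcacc
Irf1, 1 GAS-type match, -105 to -67, chr11:53769909-53769947, plus strand: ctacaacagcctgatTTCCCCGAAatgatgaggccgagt

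Values below are the processed intensity of a gene, read from its brightest probe, as a multiple of the 75th percentile of its array, and differences are in log2 of these multiples. With 1 array per condition no difference has a replicate check, none was tested, and each describes the arrays compared. Replicate spots of a probe on the same array differed with an SD of 0.087 (log2) where they were well above background, which leaves out the spread between mice. Between 53% and 57% of the spots that are not controls were well above background, no spot was saturated, and the 4 arrays shared 1 slide and 1 scan. All 10 hepatocyte markers were well above background on every array. Mboat7, the targeted gene, measured 4.97 in F/F and 4.04 in LKO on chow, and 4.49 and 3.72 on HFD (log2 difference -0.30 on chow and -0.27 on HFD). Since it was not determined if this probe covers the deleted exons, the value is no full check of the labels. A gene counts as called here where the arrays differ at least 1.5-fold. In bulk RNA, fewer cells of a type and less RNA per cell cannot be told apart.

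The interferon-stimulated genes were higher on HFD than on chow in either genotype. In F/F, 35 of 40 were higher on HFD and 5 were lower, with a median log2 difference of 0.55 against -0.02 over all genes, of which 47.8% were higher. At least 1.5-fold higher were 20 of the 40, against 13.2% of all genes, and Irf1 alone was at least 1.5-fold lower, against 9.6%. In LKO, 37 of 41 were higher and 4 were lower, with a median of 0.96 against -0.07 over all genes, of which 43.5% were higher. At least 1.5-fold higher were 29 of the 41, against 15.4% of all genes, and 0 were at least 1.5-fold lower, against 11.7%. Both HFD arrays lay above both chow arrays for 32 of the 40 members measured on all 4 (80%), against 28.1% of 13981 genes. The exceptions were Stat2, which lay lower on both HFD arrays, and Irf1, Irf9, Bst2, Iigp1, Irgm1, Ifi35 and Parp9, whose diets overlapped.

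**Figure D1:**
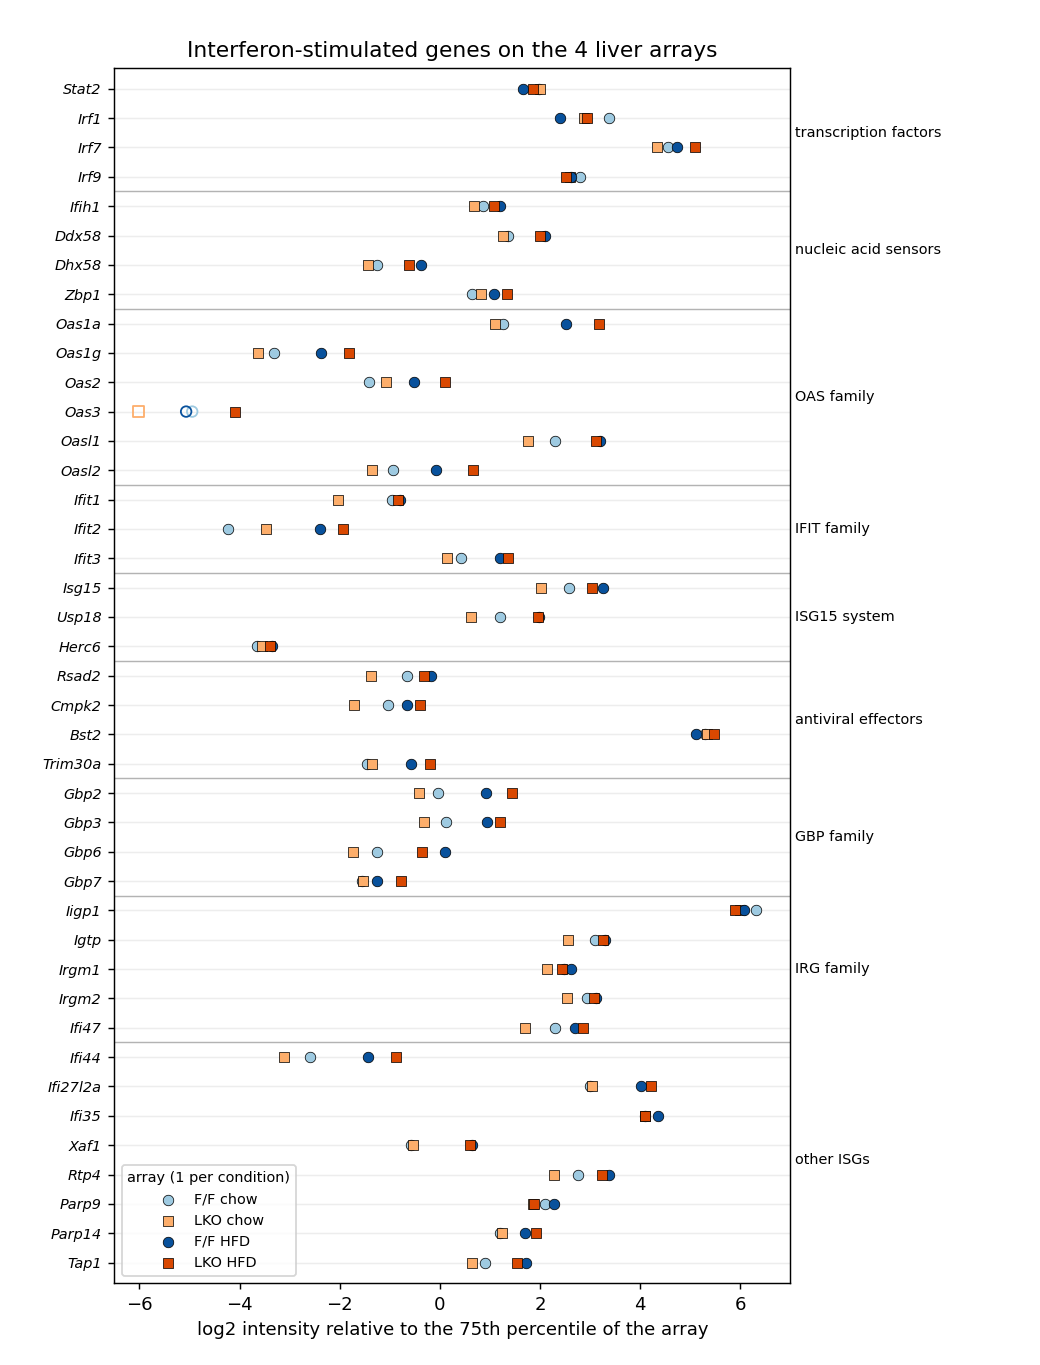
Log2 intensity of 41 interferon-stimulated genes relative to the 75th percentile of each array, with 1 point per array and open symbols where the probe was not well above background. The dark HFD symbols lie to the right of the pale chow symbols for 32 of the 40 genes measured on all arrays, and levels should be compared along a row and not between rows.

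Between genotypes, most members were lower in LKO on chow, and the list was evenly split on HFD. On chow, 12 of 40 members were higher and 28 were lower in LKO, with a median of -0.27 against 0.00 over all genes, of which 50.7% were higher. Ifit2 alone was at least 1.5-fold higher, against 3.52% of all genes, and 5 members (Ifit1, Rsad2, Cmpk2, Usp18 and Ifi47) were at least 1.5-fold lower, against 3.46%. With normexp, a model-based correction of the raw spot signal for its background, Ifit1 alone stayed at least 1.5-fold lower (-0.62) and Ifit2 was no longer called (0.22). On HFD, 21 of 41 were higher and 20 were lower in LKO, with a median of 0.15 against -0.03 over all genes, of which 45.9% were higher. At least 1.5-fold higher were 4 members, all of the OAS family (Oasl2, Oas1a, Oas2 and, as a bound, Oas3), against 8.07% of all genes, and 0 were at least 1.5-fold lower, against 6.08%. The count on HFD is close to that background, and Oas2 was no longer called under normexp (0.51) or with the mean of its probes (0.23). That mean takes in a second probe of Oas2 that was not well above background on any array. With every probe counted by itself the median on HFD was 0.01. Oas3 has a value on HFD only because it was well above background in LKO. Over the 40 members well above background on all arrays the median was 0.06, and 3 were at least 1.5-fold higher.

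The LKO chow array held the lowest value of the 4 for 25 of 40 members (62.5%), against 15.5% of all genes. The highest value was that of F/F HFD for 18 members (45%), against 20.6% of all genes, and of LKO HFD for another 18 (45%), against 25.7%. It was that of F/F chow for Irf1, Irf9 and Iigp1 (7.5%), against 30.3%, and of LKO chow for Stat2 (2.5%), against 23.4%. The diet difference was larger in LKO than in F/F for 33 of 40 members, against 43.7% of all genes, with a median difference of differences of 0.33 against -0.05. It was at least 1.5-fold larger for 11 (Irf1, Irf7, Ifit1, Ifi44, Oas1a, Oas1g, Oasl2, Gbp2, Gbp3, Ifi47 and Cmpk2), against 7.2% of all genes, and at least 1.5-fold smaller for 0, against 6.69%. The LKO chow array enters both the genotype difference on chow and the diet difference in LKO, so these counts are not independent of each other.

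**Figure D2:**
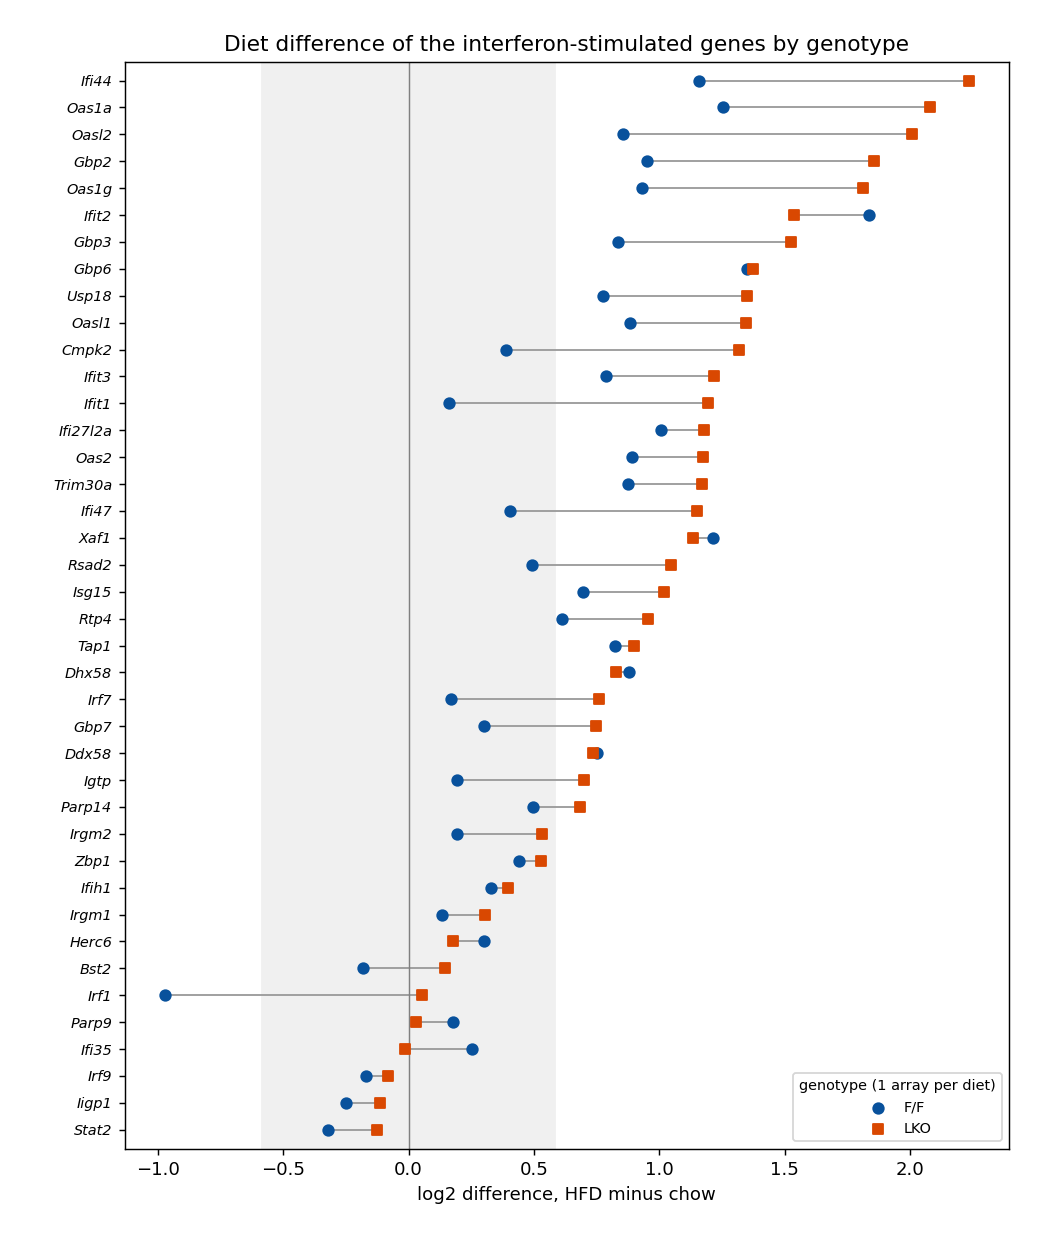
Log2 difference HFD minus chow of the 40 members measured on all arrays, in F/F (circles) and in LKO (squares), ordered by the value in LKO, with differences under 1.5-fold in the grey band. The square lies to the right of the circle for 33 of the 40 genes, by most for Oasl2, Ifi44, Ifit1 and Irf1.

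Of the 4 transcription factors of the list, Irf7 had both HFD arrays above both chow arrays like most members, while Irf1, Irf9 and Stat2 did not. Irf1, a factor that is itself induced by interferon gamma through a GAS, measured 10.4 in F/F and 7.36 in LKO on chow, and 5.30 and 7.63 on HFD. It was thus highest in F/F on chow and lowest in F/F on HFD, with a log2 difference of -0.97 between these diets (1.96-fold), while the LKO arrays differed by 0.05. Its dimmer probe gave -1.26 and 0.04. Irf7, the factor that amplifies type I interferon production, was 23.6, 20.2, 26.5 and 34.3 in the same order of arrays. LKO was lower than F/F on chow (-0.22) and higher on HFD (0.37), and the diets differed by 0.17 in F/F and by 0.76 in LKO. Stat2, the transducer that carries the transactivation domain of the ISRE-binding complex, was 3.97, 3.97, 3.17 and 3.64. Irf9, its DNA-binding partner, was 6.94, 6.08, 6.18 and 5.75. By the brightest probes, these values lay within 1.25-fold of each other between diets and between genotypes. The second probe of Stat2 went the other way for LKO against F/F on chow (-0.15) and for HFD against chow in LKO (0.40). That dimmer probe (0.08, 0.07, 0.06 and 0.10) gave 0.69 for LKO against F/F on HFD, against 0.20 by the brightest probe. The value of 0.69 is over the threshold for a call, though the gene was read from its brightest probe. For HFD against chow in F/F the second probe gave -0.43, against -0.32. The second probe of Irf9 went the other way for LKO against F/F on HFD (0.02).

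The 4 sensors of foreign nucleic acid were higher on HFD on every comparison of diets. By their brightest probes the amount was nearly the same in F/F (median 0.60) and in LKO (median 0.63). Ddx58 (RIG-I), which detects viral RNA with a free triphosphate end, measured 2.56 in F/F and 2.39 in LKO on chow, and 4.30 and 3.98 on HFD. Its diet differences were 0.75 and 0.74, and its 3 further probes were also higher on HFD. Dhx58 (LGP2), a regulator of the RNA sensors, was 0.42, 0.37, 0.77 and 0.65, with diet differences of 0.88 and 0.83. Ifih1 (MDA5), the sensor of long double-stranded RNA, was 1.82, 1.61, 2.29 and 2.13, and its diet differences stayed under 1.5-fold (0.33 and 0.40). Zbp1, a sensor of Z-form nucleic acid that can trigger necroptosis, was 1.56, 1.76, 2.12 and 2.53. It was the member of this group that was higher in LKO on both diets (0.17 and 0.26), though its second probe was lower in LKO on chow (-0.22). That second probe gave unlike diet differences in the genotypes, 0.83 in F/F and 1.45 in LKO, against 0.44 and 0.53 by the brightest probe.

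The OAS family makes 2′-5′-linked oligoadenylates that activate RNase L. Together with the related OASL proteins, it had median diet differences of 0.89 in F/F and 1.58 in LKO, the latter the widest of the families. The median in F/F is over 5 genes and that in LKO over 6, where Oas3 adds a bound. Oas1a measured 2.39 in F/F and 2.14 in LKO on chow, and 5.70 and 9.03 on HFD. The HFD arrays were thus 2.39-fold higher in F/F and 4.23-fold higher in LKO, and LKO was 1.59-fold higher than F/F on HFD (0.67) but not on chow (-0.16). Oas1g, which lies in the same cluster and has nearly the same letters before its start, was 0.10, 0.08, 0.19 and 0.28, with diet differences of 0.93 and 1.81. Under normexp its diet difference in LKO was 0.50, which is under 1.5-fold. Oas2 was 0.37, 0.47, 0.69 and 1.07, and it was higher in LKO on both diets (0.34 and 0.62). Oas3 was well above background only in LKO on HFD, where it was at least 1.84-fold higher than on F/F HFD and at least 1.54-fold higher than on LKO chow. Its own processed values were 0.03, 0.02, 0.03 and 0.06. Oasl2, the OASL protein that keeps synthetase activity, was 0.52, 0.39, 0.95 and 1.58, with diet differences of 0.86 and 2.01 and a log2 difference of 0.73 between LKO and F/F on HFD, the highest among members measured on both arrays. Oasl1, a translational repressor of Irf7, was 4.94, 3.40, 9.12 and 8.64. In contrast to Oasl2 it did not differ between the HFD arrays beyond the spread of replicate spots (-0.08, and 0.01 by its second probe), and it was lower in LKO on chow (-0.54). Probes of near-identical paralogs such as Oas1a and Oas1g may bind each other's transcripts.

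The 3 IFIT genes lie next to each other on chromosome 19 and encode proteins that bind viral RNA. Ifit1 measured 0.52 in F/F and 0.24 in LKO on chow, and 0.58 and 0.56 on HFD. The LKO chow array stood apart from the other 3, 2.13-fold below F/F chow (-1.09), the lowest difference of any member on chow. Ifit3 was 1.33, 1.10, 2.30 and 2.55, and its diet differences were 0.79 and 1.22. Ifit2 was 0.05, 0.09, 0.19 and 0.26, with diet differences of 1.83 (0.53 under normexp) and 1.54. It was the member most raised in LKO on chow (0.76), opposite to its neighbours, and on F/F chow its signal was close to the dimmest signal that counted as well above background (0.04).

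Isg15, a ubiquitin-like protein joined to newly made proteins, measured 5.94 in F/F and 4.07 in LKO on chow, and 9.62 and 8.24 on HFD. LKO was lower than F/F on either diet (-0.55 and -0.22), and HFD was higher than chow in either genotype (0.69 and 1.02). Usp18, the protease that removes Isg15 and dampens the type I receptor, was 2.31, 1.53, 3.95 and 3.90. LKO was 1.51-fold lower on chow and level with F/F on HFD (-0.02). Herc6, a ligase for Isg15, was 0.08, 0.08, 0.10 and 0.10, and its differences were all within 0.30.

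Among the antiviral effectors, Rsad2 (viperin), a radical SAM enzyme, and its neighbour Cmpk2, a mitochondrial nucleotide kinase, were lower in LKO on chow. Rsad2 measured 0.63 in F/F and 0.39 in LKO on chow, and 0.89 and 0.80 on HFD, which is a difference of -0.71 on chow and of -0.15 on HFD (0.06 by its second probe). Cmpk2 was 0.49, 0.31, 0.64 and 0.76, with -0.67 on chow and 0.27 on HFD. The diet differences of this pair were under 1.5-fold in F/F (0.49 and 0.39) and over 2-fold in LKO (1.05 and 1.32). Trim30a, a TRIM protein that restrains NF-kB signalling, was 0.37, 0.39, 0.67 and 0.87, with diet differences of 0.88 and 1.17. Bst2 (tetherin), which holds budding virus at the membrane, was 39.2, 40.3, 34.6 and 44.5, and the diets overlapped.

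The guanylate-binding proteins, large guanosine triphosphatases that coat pathogen vacuoles, were all higher on HFD, with medians of 0.89 in F/F and 1.45 in LKO. Gbp2 measured 0.98 in F/F and 0.75 in LKO on chow, and 1.89 and 2.71 on HFD. LKO was lower on chow (-0.38) and higher on HFD (0.52), and the diet difference was 1.93-fold in F/F and 3.61-fold in LKO. Gbp3 was 1.08, 0.80, 1.93 and 2.29, with the same order of arrays and diet differences of 0.83 and 1.52. Gbp6 was 0.42, 0.30, 1.07 and 0.78. Unlike in the other members of its family, LKO was the lower genotype on both diets (-0.49 and -0.46), and -0.46 was the lowest difference of any member on HFD. Gbp7 was 0.34, 0.35, 0.42 and 0.58, with diet differences of 0.30 and 0.75.

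The immunity-related guanosine triphosphatases, smaller enzymes of the same defence, were each lower in LKO on chow (5 of 5, from -0.59 to -0.32), and 4 of the 5 stayed lower on HFD by 0.19 or less. Igtp (Irgm3) measured 8.56 in F/F and 5.86 in LKO on chow, and 9.79 and 9.52 on HFD. Irgm2, its neighbour on chromosome 11, was 7.61, 5.84, 8.69 and 8.44, and Irgm1 was 5.57, 4.41, 6.12 and 5.45. In each of these the LKO chow array lay below the other 3. Ifi47 was 4.90, 3.25, 6.48 and 7.22, the member of this family that was called on chow (-0.59, 1.51-fold lower in LKO) and that was higher in LKO on HFD (0.16). Iigp1 was 80.0, 63.9, 67.3 and 59.1, and it differed by under 1.5-fold in every comparison.

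The remaining 8 members were each higher on HFD in F/F, and 7 of 8 in LKO. Ifi44, a cytoplasmic protein of the antiviral state, measured 0.17 in F/F and 0.12 in LKO on chow, and 0.37 and 0.54 on HFD. Its 4.70-fold difference between diets in LKO was the highest of any member, against 2.23-fold in F/F, and LKO was lower than F/F on chow (-0.52) and higher on HFD (0.56). That rank was lost under normexp, where its log2 diet differences were 0.58 in F/F and 0.99 in LKO, the latter below those of Oas1a (2.04), Gbp2 (1.64) and Oasl2 (1.44). Ifi27l2a was 8.01, 8.26, 16.1 and 18.7, and Xaf1, an antagonist of the apoptosis inhibitor XIAP, was 0.67, 0.69, 1.56 and 1.51. Both were over 2-fold higher on HFD in either genotype and within 0.22 of each other between genotypes. Rtp4, a chaperone of receptor transport, was 6.77, 4.87, 10.3 and 9.45, and Tap1, the peptide transporter of antigen presentation, was 1.87, 1.56, 3.31 and 2.90. Parp14, an ADP-ribosyltransferase, was 2.31, 2.36, 3.26 and 3.78, whereas Parp9, which is encoded beside it, was 4.28, 3.62, 4.84 and 3.70. Parp9 was the member next lowest in LKO on HFD after Gbp6 (-0.39). Ifi35 was 17.1, 17.2, 20.4 and 17.0, with -0.26 on HFD.

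**Figure D3:**
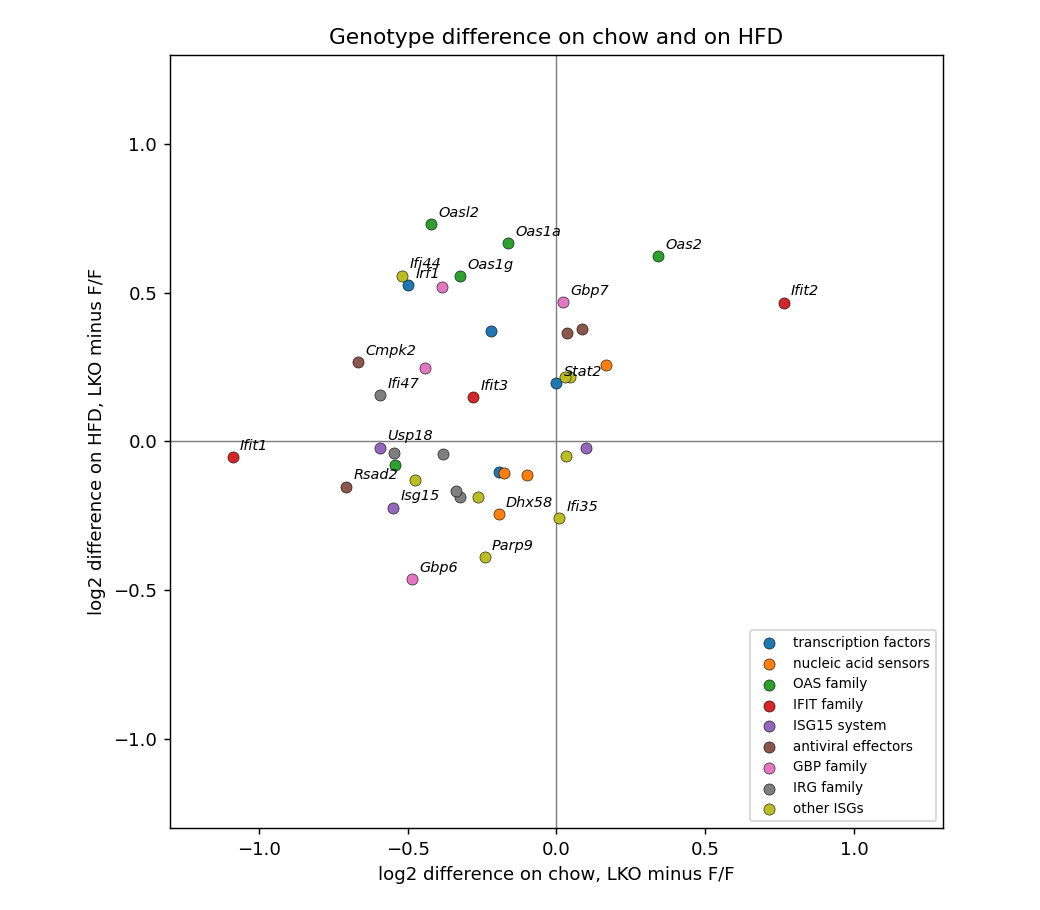
Log2 difference LKO minus F/F of the 40 members measured on all arrays, on chow (horizontal axis) and on HFD (vertical axis), coloured by family. In the upper left 11 genes were lower in LKO on chow and higher on HFD, in the lower left 17 were lower on both diets, in the upper right 9 were higher on both, and 3 were higher on chow and lower on HFD.

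By the sign of the genotype difference, 11 of 40 members were lower in LKO on chow and higher on HFD (Irf1, Irf7, Ifit3, Ifi44, Oas1a, Oas1g, Oasl2, Gbp2, Gbp3, Ifi47 and Cmpk2), against 19.1% of all genes. A further 17 were lower on both diets, against 29.2%, and 9 were higher on both, against 24.7%. Xaf1, Ifi35 and Herc6 were higher on chow and lower on HFD, against 26.9%, with no difference over 0.26 in size. No member was called in opposite directions on the 2 diets.

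Members with and without an ISRE-type match had the same median diet difference in LKO, 1.02 for the 19 with a match and 1.02 for the 12 without one. In F/F it was 0.59 for 18 and 0.40 for 12. The median of LKO minus F/F was -0.33 for 18 with a match and -0.24 for 12 without on chow, and 0.20 for 19 and 0.07 for 12 on HFD. Oas1a, with matches, and Oasl2, without one in its window, differed between diets in LKO by 2.08 and 2.01.

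The interferons themselves were near or below background. Of 16 ligand genes with a probe, 4 were well above background on all arrays, with values from 0.05 to 0.18 (Ifna9, Ifna14, Ifnab and Ifnl3). Ifnb1 was not well above background on any array. Ifng was so on LKO HFD alone, at 0.04. Ifna1 was above background on 3 arrays, Ifna5 on LKO HFD and Ifnk on LKO chow. None of the ligands was at least 1.5-fold higher on HFD in either genotype, among 5 with a value in F/F and 6 in LKO, against 13.2% and 15.4% of all genes, and with so few ligands measured this count says little.

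The receptors and kinases of the pathway differed less than the members, with median diet differences of 0.08 in F/F and 0.45 in LKO. Ifnar1 was 2.15, 2.49, 1.92 and 1.71 and Ifnar2 was 11.9, 11.3, 9.71 and 9.32 in the order of arrays used above, so the type I receptor chains were lower on both HFD arrays. Ifngr1 was 3.13, 3.03, 4.10 and 5.38 and Ifngr2 was 2.93, 3.33, 3.84 and 4.54, so the type II receptor chains were higher on both. Ifnlr1, the type III receptor chain, was above background on the HFD arrays alone (0.03 in F/F and 0.09 in LKO), and Il10rb, which pairs with it and with the receptor for IL-10, was 1.92, 2.26, 2.94 and 4.67.

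Feedback regulators showed a wide range. Socs3, which blocks cytokine receptors of the IL-6 type, measured 31.9 in F/F and 9.83 in LKO on chow, and 1.96 and 4.73 on HFD. Socs1, the inhibitor of Jak kinases at the interferon receptors, was 0.26, 0.13, 0.11 and 0.16. Both were highest on F/F chow and lowest on F/F HFD, as was Irf1. On HFD all 7 negative regulators with a probe were higher in LKO, against 45.9% of all genes, by a median of only 0.15. Socs3 (1.27) was the 1 gene of the 7 at least 1.5-fold higher, against 8.07% of all genes, followed by Socs1 (0.56) and Pias1 (0.16). Of the 8 transducers, Ciita, the master factor of MHC class II, was the most raised in LKO on HFD (0.87), followed by Irf5 (0.49) and Irf8 (0.43), and Irf2 was the most lowered (-0.32). Of 10 genes of upstream sensing, 8 were higher in LKO on HFD, against 45.9% of all genes, and 0 were at least 1.5-fold higher. Sting1 (0.49), Cgas (0.36) and Ikbke (0.29) were the most raised, and Tlr9 was the lowest (-0.42).

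A further 63 interferon-stimulated genes outside the list, also chosen with earlier results of these data known, gave mostly the same direction on diet. Of those with a value, 47 of 57 were higher on HFD in F/F and 49 of 57 in LKO, with medians of 0.50 and 0.57, and 23 and 28 were at least 1.5-fold higher, against 13.2% and 15.4% of all genes. Between genotypes, 21 of 56 were higher in LKO on chow (median -0.07), against 50.7% of all genes, and 37 of 57 were higher on HFD (median 0.17), against 45.9%. On HFD, Ifi205 (0.78), Ifi30 (0.74) and Ifi204 (0.68), genes with high expression in myeloid cells, were the most raised in LKO. Pml (-0.67), Apol9a (-0.65) and Apol9b (-0.63) were the most lowered.

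Markers of several other cell types moved on the same arrays, not all in the same direction, and their part in the differences of the members was not tested. The 12 macrophage and Kupffer cell markers summed to 128 in F/F and 122 in LKO on chow, and to 168 and 219 on HFD, with 10 of 12 higher on HFD in either genotype and medians of 0.40 and 0.95. Much of the rise of the sum was Cd5l, at 38.5, 41.3, 62.8 and 100.7. The exceptions were Marco, at 30.9, 21.0, 26.2 and 8.39, and Timd4, at 0.69, 0.72, 0.64 and 0.33. Both were lower in LKO than in F/F on HFD (-1.64 and -0.95). The sum of 8 NK cell markers was 1.39, 1.11, 1.84 and 3.64. The 6 of them above background were each lower in LKO on chow (median -0.38) and each higher in LKO on HFD (median 0.99), while Ncr1 and Klre1 were not well above background on any array. The 7 T cell markers summed to 21.6, 19.3, 15.7 and 14.7, a sum set by Cd4, with medians of -0.20 in LKO on chow and 0.76 on HFD. Plasmacytoid dendritic cells, known as strong producers of type I interferon, had 5 of 8 markers above background on all arrays, with a sum of 71.6, 74.5, 70.3 and 97.7. Of 7 with a value, 6 were higher on HFD than on chow in LKO (median 0.60), against 43.5% of all genes. On HFD 6 of 7 were higher in LKO than in F/F (median 0.69), against 45.9%. At least 1.5-fold higher were 5 of the 7, against 8.07%. Of these, Ccr9 (0.035 in F/F and 0.062 in LKO) and Spib (0.05 and 0.11) were dim, and their diet differences in LKO were bounds. Cox6a2, also among the 5, was 0.68 higher in LKO on HFD but already 1.96 higher on chow, from a dim 0.04 on F/F chow. Tcf4 (0.13) and Siglech (-0.07) differed little between the genotypes on HFD. Most of the rise of the sum was Ly6d, at 1.09, 1.26, 10.3 and 39.8. Siglech was 68.0, 70.6, 56.6 and 53.9 and so lay lower on both HFD arrays. Conventional dendritic cell markers had medians of 0.56 for LKO against F/F on HFD and 1.31 for diet in LKO. Of 4 B cell markers with a value, 2 were higher and 2 lower in LKO on HFD. Neutrophil markers did not rise, with diet medians of 0.03 in F/F and -0.01 in LKO. In LKO 2 of 7 of them were higher on either diet (medians -0.27 on chow and -0.19 on HFD), against 50.7% and 45.9% of all genes.

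Further lists moved with the diet or with single arrays. The 10 hepatocyte markers were each lower on HFD in either genotype (sums of 4810, 4870, 3790 and 3340), with medians of -0.34 in F/F and -0.54 in LKO. The 10 exocrine pancreas markers, which are not those of a liver cell, summed to 26.1, 15.1, 13.6 and 50.5, were each lower in LKO than in F/F on chow (median -1.22) and each higher on HFD (median 1.87). Red blood cell markers summed to 178, 177, 354 and 179, so that F/F HFD stood apart in a sum made up mostly of Hba-a1 and Hba-a2. In F/F, 6 of 7 were higher on HFD, against 47.8% of all genes. Alas2 went the other way, at 21.4, 21.2, 16.0 and 8.34, and was lower on HFD in either genotype. With 1 array per condition the content of such cells in a sample and the condition cannot be told apart.

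**Figure D4:**
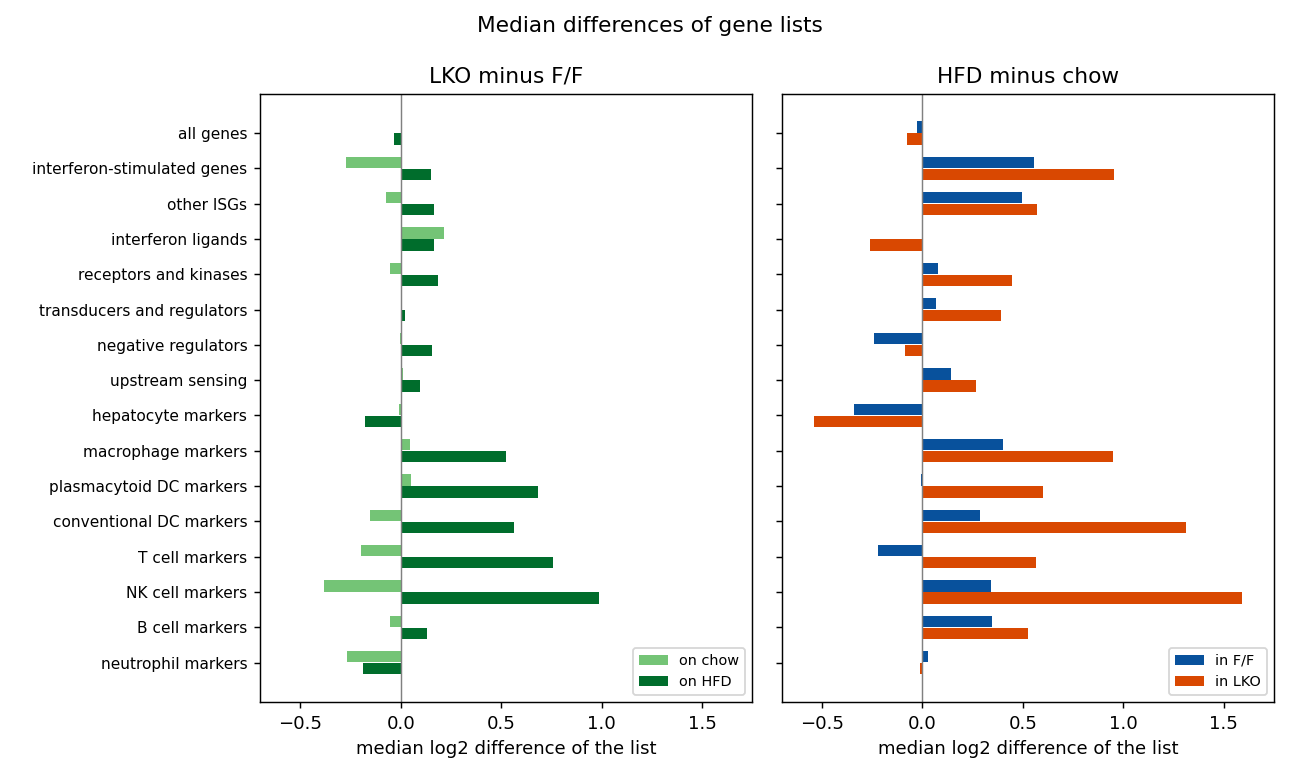
Median log2 difference of the interferon-stimulated genes, of all genes, of other lists of the pathway and of cell type markers, as LKO minus F/F on chow and HFD (left) and as HFD minus chow in F/F and LKO (right). The bars of the interferon-stimulated genes reach 0.55 in F/F and 0.96 in LKO on the right, where those of all genes lie at -0.02 and -0.07 and those of NK cell markers at 0.34 and 1.59.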

How the data were processed

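Liver RNA of 4 conditions was measured on 1 array each. Scanner files deposited by the authors hold a background-subtracted processed intensity for every spot, made with Agilent Feature Extraction (version 12.0.3.1 per the submitters' processing notes), and mark outlier spots, saturated spots and spots well above background. Their table of values is the same intensity times 1 factor per array (2.60, 2.63, 2.41 and 2.10 for chow in F/F and LKO and then for HFD in F/F and LKO), and how the factors were made is not given in the sources used here.

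From the deposited intensity, log2 minus the 75th percentile over spots that are not controls was computed for each array with Python 3.11.15, numpy 2.4.6 and pandas 2.3.3, leaving out outlier spots and averaging the spots of a probe. The percentile was 222, 213, 263 and 296 in the same order. Of 56605 probes, 33767 matched a gene symbol through accessions of the RefSeq table of assembly GRCm38.p6. The scanner files name another build, so only promoter windows carry coordinates. Of the 23462 genes, 8057 had several probes, and the probe with the highest mean stood for the gene. No value was given to a gene below background on each of the compared arrays. Where 1 array was below, the fold was a bound, against the higher of the dimmest signal well above background on that array and the signal of the dim probe.

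No test was run. With 1 array per condition the 4 comparisons have no replicates, and a fit of genotype plus diet over all 4 arrays, which would leave 1 residual degree of freedom, was not made. Differences are given beside their number and median over all genes. Whether these samples came from separate animals is not stated. The members and all lists were chosen with earlier results of these data known. Values were given for every member, with detail for the 5 most raised and 5 most lowered of each comparison, and for the ligands above background, the receptors and up to 3 most raised and 3 most lowered genes of the other lists on HFD. A further gene of the rule is not reported here. Probe sequences were not used here, so binding to related transcripts was not examined. The alternatives tried were normexp (limma 3.58.1 in R 4.3.3, with an offset of 50), quantile normalization, other percentiles, filters and probe rules, the deposited table and a 2-fold threshold. The steps were tested on simulated data. Figures were drawn with matplotlib 3.10.9.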

Additional observations from a re-analysis of the deposited data

Results flagged for a closer look

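The genotype difference of the interferon-stimulated genes had opposite signs on the 2 diets. Their median log2 difference LKO minus F/F was -0.271 on chow and 0.15 on HFD, and this contrast was not tested. On HFD 21 of 41 members were higher in LKO, so the list as a whole was not on one side, whereas on chow 28 of 40 were lower.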

How the results depend on the processing

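No paired analysis was possible because each condition has 1 array and carries no replicate number. A fit of genotype plus diet was not run. The 4 medians kept their sign under all alternatives run. With normexp background correction they were -0.184 (LKO against F/F on chow), 0.0951 (on HFD), 0.462 (HFD against chow in F/F) and 0.703 (in LKO). With every probe counted, the median was 0.0057 for LKO against F/F on HFD, 0.466 for diet in F/F and 0.801 in LKO. The percentile over probes above background on all arrays gave 1.04 for diet in LKO. The deposited table as deposited, chosen after seeing the data, gave 0.689 in F/F and 1.10 in LKO, where the median of all genes was 0.11 and 0.072. Without filter and floor the median of all genes was -0.12 (LKO against F/F on HFD), -0.12 (diet in F/F) and -0.21 (diet in LKO).

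Counts at least 1.5-fold changed as follows. LKO against F/F on chow had 0 higher under normexp and at 2-fold in place of 1, and 1 lower under either in place of 5. On HFD there were 2 higher under normexp and 0 at 2-fold in place of 4, and 1 lower with the mean of all probes in place of 0. For diet in F/F, 6 were 2-fold higher in place of 20, and the number lower was 2 with every probe counted and 0 at 2-fold in place of 1. For diet in LKO, 20 of the 29 were at least 2-fold higher. Among 39 named differences, 36 were smaller in size under normexp. Signs changed for 2 under normexp (Trim30a on chow and Ifi35 for diet in LKO), 3 under quantile normalization (Ifi35, Iigp1 and Irf9 for diet in LKO), 2 under the percentile over probes above background on all arrays (Ifi35 and Irf9 for diet in LKO), 2 with the mean of all probes (Stat2 for diet in LKO, from -0.13 to 0.14, and Zbp1 on chow, from 0.17 to -0.03) and 4 with the table as deposited (Ifi35, Iigp1, Irf9 and Stat2 for diet in LKO). Each of these was within 0.2 of 0 throughout. Under the other 3 alternatives no named difference changed sign. With the mean of all probes Parp9 was called in LKO on HFD (-0.78 in place of -0.39). That mean takes in a dim second probe, well above background on F/F HFD alone (0.036, and 0.016 on LKO HFD). The causes were not tested. Arrays have no read depth, and precision depends on the signal over background. Replicate spots not well above background differed with an SD of 0.52, so Oas3 and the interferon ligands are least certain.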
